A study of Rattus norvegicus with 8 samples.

Results

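The ADAMTS (a disintegrin and metalloproteinase with thrombospondin motifs) proteases and the TIMP (tissue inhibitor of metalloproteinases) genes were examined as a group of 10 genes in rat nucleus pulposus (NP) cells. The members were chosen by gene symbol: Adamts1, Adamts2, Adamts4, Adamts5, Adamts7, Adamts8, Adamts9, Timp1, Timp2 and Timp3. All 10 were found among the 13612 rows of the named gene table, and all 10 passed the filter on low counts. RNA-seq was performed on primary NP cells, from the gelatinous core of the intervertebral disc, of adult Sprague Dawley rats aged 3 to 6 months. Sirt6-KD cells (n = 4, libraries S5 to S8) received lentiviruses carrying an equal mixture of 3 ShSirt6 clones, and Sirt6-Ctrl cells (n = 4, libraries S1 to S4) received a control ShRNA virus. The comparison asked which transcripts changed when SIRT6, a nuclear deacylase of the sirtuin family, was reduced. Both groups therefore carried a lentivirus, and the methods give puromycin selection for the transduced cells. The knockdown was partial and was made in a transduced pool rather than in a clone. The series record speaks of 4 rats and their controls, but the labels carry no rat number shared by the groups, so the samples were compared unpaired.

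ADAMTS enzymes are secreted zinc proteases that are anchored in the extracellular matrix by their thrombospondin repeats. Several of them cut aggrecan and versican, the large proteoglycans that hold water in cartilage and in the NP, and others trim procollagens or cut cartilage oligomeric matrix protein. TIMPs are small secreted proteins that occupy the active site of metalloproteinases, and TIMP3, which binds to the matrix, is the member known to inhibit the aggrecanases ADAMTS4 and ADAMTS5. Transcript levels do not report protease activity, which also depends on removal of the propeptide and on the inhibitors present.

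Sirt6 transcript was at 56.4, 54.3, 52.5 and 47.6 CPM (counts scaled to a common library total, TMM-normalized) in S1 to S4 and at 21.8, 21.0, 19.2 and 20.6 CPM in S5 to S8, a log2 fold change of -1.35 ± 0.13 (SE; edgeR quasi-likelihood test, adjusted p = 0.000713). Total counts were 31994838 to 40124813 in Sirt6-Ctrl and 32382957 to 36600792 in Sirt6-KD. ERCC spike-ins, synthetic RNAs added to the samples, took 6.27% of the counts in S1 and 9.80% in S2, against 2.97% to 3.08% in S3 and S4 and 2.15% to 2.47% in Sirt6-KD. S1 and S2 thus stood apart from the other libraries, and S4 and S8 shared a further deviation that is given with Adamts5. Across genes, log2 CPM of the control library S3 correlated more with each Sirt6-KD library (r = 0.944 to 0.950) than with the other controls (0.889 to 0.941), although its Sirt6 level was that of a control. Leaving S3 out raised the genes called from 1063 to 1699 higher and from 1416 to 1913 lower. Of the 12 NP markers listed, 7 had a named row, and their summed level was 217 to 237 CPM in Sirt6-Ctrl and 209 to 233 CPM in Sirt6-KD. That sum hid opposite differences, since Car12 was at 28.4 ± 31.0 and 82.1 ± 10.8 CPM (SD, n = 4; edgeR, adjusted p = 0.0776), and without it the sums were 152 to 225 and 136 to 149 CPM. Of the 7 markers, 5 had a negative log2 fold change, among them Pax1 (-0.43, adjusted p = 0.0459, below the fold threshold) and Cd24 (-0.98, adjusted p = 0.0537), and their part in the results on the ADAMTS and TIMP genes was not tested. The keratin markers Krt18 and Krt19, the notochord factor brachyury (T) and the cartilage collagen Col2a1 had no row under these symbols and were not analysed here, while Krt8 was at most 10.7 CPM in any library and fell by 1.32 on the log2 scale (SE 0.41; edgeR, adjusted p = 0.0441). Summed annulus fibrosus and fibroblast markers, chiefly Col1a1, were at 16352 to 29587 CPM in Sirt6-Ctrl and at 11539 to 21034 CPM in Sirt6-KD. Of the 7 tested, 4 had a negative log2 fold change and 3 a positive one. Only the tendon factor Scx passed, with a fall of 1.20 (log2, SE 0.39; edgeR, adjusted p = 0.0490). The positive ones included Pdgfra (0.82, edgeR adjusted p = 0.167) and Fbln1 (0.64, adjusted p = 0.111). The macrophage markers with a row (3 of 7) summed to 11.9 to 29.7 and 14.96 to 23.8 CPM, and the only endothelial marker with a row, Tek, was at 0.592 CPM or less.

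In all, 4 of the 10 members passed the threshold, set at 0.05 for the adjusted p and at 1.5 for the fold change. Adamts1, a protease that cuts versican and aggrecan, Adamts7, which cuts cartilage oligomeric matrix protein, and Timp3 rose in Sirt6-KD cells by 1.15 ± 0.33, 1.27 ± 0.28 and 0.85 ± 0.16 on the log2 scale (SE, n = 4 per group). Adamts2, which removes the amino-terminal propeptide of fibrillar procollagens, fell by 1.32 on the log2 scale (SE 0.32). Neither Timp1 nor Timp2 rose with Timp3, and the aggrecanases Adamts4 and Adamts5 did not pass. Across all 13250 genes tested, 18.7% were called, 8.02% higher and 10.7% lower, so 3 members higher and 1 lower of 10 stood beside a background that is itself large. The median log2 fold change was 0.85 over the members and -0.02 over all genes. These are bulk samples, in which fewer cells of a type and less RNA per cell cannot be told apart.

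The promoters of the 4 genes that passed are shown so that the sequence just upstream of each can be read beside its change. They are the 250 bases before the transcription start in RefSeq (GRCr8 assembly, another build than the Rnor_6.0 of the counts), written 5′ to 3′ on the strand of the gene. Adamts1 lies at chr11:38427385-38427634 (minus strand), Adamts2 at chr10:35421780-35422029 (plus), Adamts7 at chr8:99584279-99584528 (plus) and Timp3 at chr7:19459559-19459808 (minus). Capitals mark matches, on either strand, to the GC box (GGGCGG), the TATA box (TATAAA) and the CCAAT box (CCAAT).
Adamts1: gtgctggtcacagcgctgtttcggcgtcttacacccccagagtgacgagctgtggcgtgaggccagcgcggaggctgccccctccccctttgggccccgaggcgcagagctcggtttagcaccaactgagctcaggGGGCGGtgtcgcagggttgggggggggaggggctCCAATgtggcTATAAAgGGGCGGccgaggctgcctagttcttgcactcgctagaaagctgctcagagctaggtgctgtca
Adamts2: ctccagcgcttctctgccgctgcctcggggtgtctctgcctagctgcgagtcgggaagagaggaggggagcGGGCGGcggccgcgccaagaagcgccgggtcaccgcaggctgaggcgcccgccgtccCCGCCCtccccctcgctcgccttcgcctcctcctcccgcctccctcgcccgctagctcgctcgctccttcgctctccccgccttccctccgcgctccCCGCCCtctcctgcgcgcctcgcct
Adamts7: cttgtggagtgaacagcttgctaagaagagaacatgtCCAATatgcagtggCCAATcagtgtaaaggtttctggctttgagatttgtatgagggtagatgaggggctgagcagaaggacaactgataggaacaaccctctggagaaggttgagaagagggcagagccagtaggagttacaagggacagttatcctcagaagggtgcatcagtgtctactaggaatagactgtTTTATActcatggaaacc
Timp3: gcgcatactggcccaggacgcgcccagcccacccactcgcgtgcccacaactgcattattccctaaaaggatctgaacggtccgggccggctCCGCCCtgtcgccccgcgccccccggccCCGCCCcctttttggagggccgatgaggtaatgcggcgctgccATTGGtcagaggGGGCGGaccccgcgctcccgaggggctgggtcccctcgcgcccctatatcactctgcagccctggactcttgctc

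The 3 genes that rose differed in GC boxes and in G and C content, while each of their windows held a CCAAT box. The Adamts1 window held 2 GC boxes, 1 TATA box and 1 CCAAT box, and the Timp3 window held 3 GC boxes and 1 CCAAT box, at 65.2% and 69.6% G and C. The Adamts7 window had no GC box, 2 CCAAT boxes, 1 TATA box and 46.0% G and C, below the 51.2% median of the 33469 promoter windows in the table. The window of Adamts2, the gene that fell, was the richest of the 4 in G and C (75.6%). It held 3 GC boxes and no CCAAT or TATA box. Among all windows, 10197 (30.5%) held a GC box, 11385 a CCAAT box and 12.9% a TATA box, so none of these motifs is rare. Searches for the letters of AP-1 (TGANTCA, in 6.34% of all windows), RUNX (TGTGGT, 14.5%), TEAD (CATTCC, 12.1%) and the E-box (CACGTG, 5.59%) found no match in these 4 windows. Promoter entries were matched for 8 of the 10 members, all but Adamts5 and Adamts8. Of those 8, 6 held a GC box, 4 a CCAAT box, 2 a TATA box and 1, Timp1, the TEAD letters. A match is a description of the letters and not evidence of binding.

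**Figure D1:**
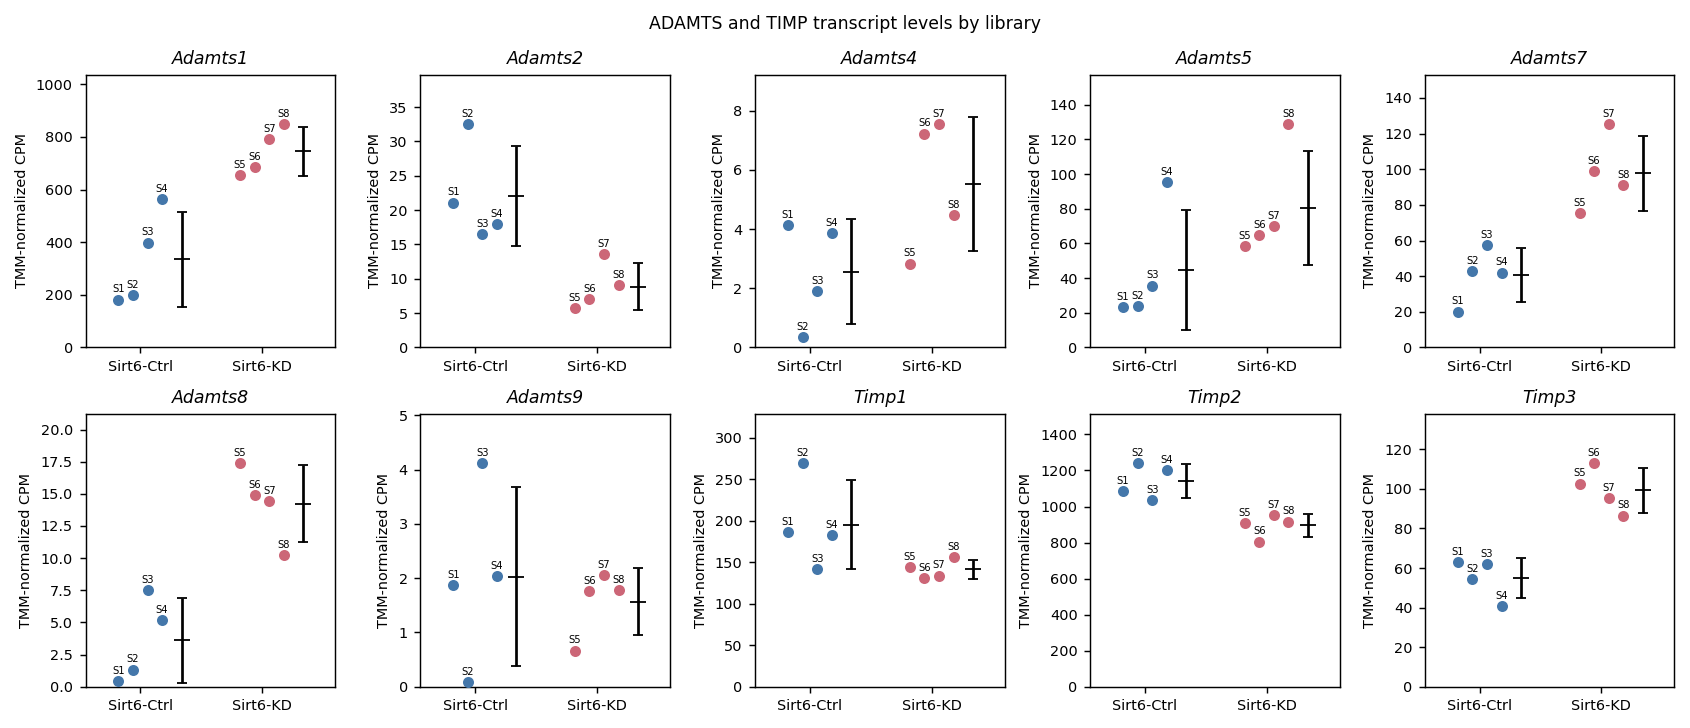
Level of each of the 10 ADAMTS and TIMP genes (y axis, TMM-normalized CPM on a scale that differs between panels) in the 4 Sirt6-Ctrl and 4 Sirt6-KD libraries, shown as points, with the group mean and SD as bars. The groups are separate for Adamts1, Adamts7, Adamts8 and Timp3, higher in Sirt6-KD, and for Adamts2 and Timp2, lower in Sirt6-KD (for Timp2 the difference changes sign when libraries are scaled by their spike-ins).

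Among the proteases that cut aggrecan and versican, Adamts1 gave the clearest change. Its level was 182, 200.3, 398 and 563 CPM in S1 to S4 and 654, 684, 790.4 and 850.0 CPM in S5 to S8. Every Sirt6-KD library lay above every Sirt6-Ctrl library, with means of 336 ± 180.2 and 745 ± 91.4 CPM (SD, n = 4), a 2.22-fold difference (edgeR, adjusted p = 0.0310). The Sirt6-Ctrl libraries differed among themselves by up to 3.10-fold, and the lowest were S1 and S2, which also had the highest spike-in shares. Without both of them the log2 fold change was 0.64 ± 0.17 and still passed (adjusted p = 0.0421), so its size depended on them. The part of the spike-in share in the result was not tested. The call was lost when any of S1, S2, S5, S6, S7 or S8 was left out (adjusted p = 0.0529 to 0.0782) while the log2 fold change stayed between 0.96 and 1.21 in those fits.

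Adamts4 and Adamts5 encode the enzymes classically termed aggrecanases, and neither passed the test. Adamts4 was at 4.14, 0.340, 1.91 and 3.85 CPM in S1 to S4 and at 2.84, 7.23, 7.56 and 4.47 CPM in S5 to S8. The groups overlapped through S5, the lowest Sirt6-KD library, and the log2 fold change of 1.11 ± 0.66 was within the spread (edgeR, adjusted p = 0.255). The values rested on few reads, 11 in S2 and 65 to 290 elsewhere.

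Adamts5 was at 23.4, 24.0, 35.7 and 95.6 CPM in S1 to S4 and at 58.3, 64.8, 69.9 and 129.1 CPM in S5 to S8. One Sirt6-Ctrl library, S4, exceeded 3 of the 4 Sirt6-KD libraries, and S8 stood above its own group. The log2 fold change over all libraries was 0.85 ± 0.45 (edgeR, adjusted p = 0.198). Without S4 it was 1.54 ± 0.30 and passed (adjusted p = 0.0116), and without both S4 and S8, a setting chosen after the data were seen, it was 1.23 ± 0.21 and passed (adjusted p = 0.0219). Without S1 and S2 it was 0.31 ± 0.41 (adjusted p = 0.668). Whether Adamts5 differed between the groups therefore hung on which libraries were counted.

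The pair S4 and S8 also stood out in other genes. Adamts12, a protease outside the 10 members that belongs to the same subgroup as Adamts7, was at 40.3 CPM in S4 and 43.9 CPM in S8, against 5.08 to 9.35 CPM in the other 6 libraries. The summed annulus fibrosus and fibroblast markers were highest in these libraries within their groups, 29587 CPM in S4 and 21034 CPM in S8. Most of each sum was Col1a1, at 25213 CPM in S4 and 17465 CPM in S8. Scx, Mkx and Thbs2 were also highest in S4 and S8 within their groups. Fbln1 (42.3 CPM), Pdgfra (49.9 CPM) and Col1a2 (1.45 CPM) were instead at their lowest Sirt6-KD level in S8. Of these, only Col1a2 was highest of its group in S4. The Col1a2 row held few reads, 31 in S1 to 107 in S4, while Col1a1 held 290419 in S6 to 1040124 in S4. Why the Col1a2 row was so low was not tested, so it is a weak marker here. Over the 13250 genes, the deviations of S4 and S8 from their group means were correlated with r = 0.29, the highest of the 16 pairs of 1 library from each group (the next was 0.16, for S3 and S7), which is a description across genes that are not independent. S4 and S8 were both the highest of their groups in 10.6% of the genes. The same share is not given for other pairs, so whether it is unusual cannot be said. The part of these markers in the Adamts5 values was not tested.

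Adamts8, another protease with aggrecan-cutting activity, was at 0.431, 1.33, 7.51 and 5.21 CPM in S1 to S4 and at 17.4, 14.9, 14.4 and 10.2 CPM in S5 to S8. All 4 Sirt6-KD libraries lay above all 4 Sirt6-Ctrl libraries, yet the Sirt6-Ctrl values spread 17.4-fold, from 15 reads in S1 to 255 in S3. The log2 fold change was 1.97 ± 0.69, the largest of the 10 members in size, and it did not pass (edgeR, adjusted p = 0.0629). It passed with DESeq2 (adjusted p = 0.0113), with limma-voom (0.0154), without S3 (2.60 ± 0.70, adjusted p = 0.0205) and without S1 and S2 (1.17 ± 0.27, adjusted p = 0.0278), within a range of 0.0113 to 0.222 over all settings. Groups that do not overlap were found for 30.4% of all genes, 14.8% higher and 15.6% lower in Sirt6-KD. Among the members they were found for 4 higher (Adamts1, Adamts7, Adamts8 and Timp3) and 2 lower (Adamts2 and Timp2).

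Adamts9, a protease that cuts versican and aggrecan, was at 1.87, 0.0928, 4.12 and 2.04 CPM in S1 to S4 and at 0.666, 1.76, 2.06 and 1.78 CPM in S5 to S8. S2 held 3 reads of the gene and S3 held 140, and the Sirt6-KD values fell inside the Sirt6-Ctrl range. The log2 fold change of -0.37 ± 0.86 (edgeR, adjusted p = 0.791) changed sign without S3, with limma-voom and with spike-in scaling, so no direction can be given.

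Adamts2 and Adamts7 act on other matrix proteins, and they changed in opposite directions. Adamts2 was at 21.1, 32.6, 16.5 and 17.9 CPM in S1 to S4 and at 5.67, 7.08, 13.6 and 9.06 CPM in S5 to S8. All Sirt6-KD libraries were below all Sirt6-Ctrl libraries, with means of 8.85 ± 3.45 and 22.0 ± 7.27 CPM (SD, n = 4; edgeR, adjusted p = 0.0183). The call was lost without S5 (adjusted p = 0.0571), without S6 (0.0641), without S4 and S8 (0.0583) and without S1 and S2 (0.0772, log2 fold change -0.95 ± 0.31), and the direction held in each. S2, the library of the highest spike-in share, was here the highest of its group.

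Adamts7 was at 20.2, 42.8, 57.3 and 42.0 CPM in S1 to S4 and at 75.3, 99.0, 125.5 and 91.1 CPM in S5 to S8. The groups were separate, with means of 40.6 ± 15.3 and 97.7 ± 21.0 CPM (SD, n = 4), a 2.41-fold difference (edgeR, adjusted p = 0.0130). The call held in each of the 8 fits that left out 1 library (log2 fold change 1.07 to 1.48) and without S1 and S2 (0.98 ± 0.22, adjusted p = 0.0228). It was lost without S4 and S8 (1.33 ± 0.36, adjusted p = 0.0517).

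The TIMP genes did not move together. Timp3 was at 62.9, 54.4, 62.0 and 40.6 CPM in S1 to S4 and at 102.6, 113.1, 95.2 and 86.4 CPM in S5 to S8. Its groups were separate, with means of 55.0 ± 10.3 and 99.3 ± 11.3 CPM (SD, n = 4), a 1.81-fold difference (edgeR, adjusted p = 0.00788), and S4 and S8 were here the lowest of their groups. The call held in each of the 8 fits that left out 1 library (0.73 to 0.95), without S1 and S2 (0.96 ± 0.19) and without S4 and S8 (0.80 ± 0.15). In RefSeq, Timp3 overlaps Syn3, which had no named row. Use of strand in the counting is not stated in the sources used here, so reads from overlapping genes cannot be told apart.

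Timp1, a broad inhibitor of matrix metalloproteinases that also acts as a growth factor, was at 187, 269.6, 142 and 183 CPM in S1 to S4 and at 144, 131, 134 and 156 CPM in S5 to S8. The ranges overlapped, since S3 lay among the Sirt6-KD libraries, and the log2 fold change was -0.47 ± 0.18 (edgeR, adjusted p = 0.0919). Without S3 it was -0.59 ± 0.16 and passed (adjusted p = 0.0199), and without S2 it was -0.26 ± 0.13 (adjusted p = 0.196), within a range of 0.0199 to 0.929 over all settings. Its RefSeq neighbour Syn1, which it overlaps, had 22 to 80 counts.

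Timp2, which takes part in the activation of pro-MMP2 at the cell surface as well as in inhibition, was at 1085, 1241, 1036 and 1203 CPM in S1 to S4 and at 906, 806, 953 and 916 CPM in S5 to S8. Every Sirt6-KD library was below every Sirt6-Ctrl library. The difference was small, with means of 895 ± 63.0 and 1141 ± 96.6 CPM (SD, n = 4) and a log2 fold change of -0.35 ± 0.13, and it missed both thresholds (edgeR, adjusted p = 0.0758). Scaling the libraries by their spike-in counts raised the all-gene median of the log2 fold change to 0.94 and turned the values of Timp1 and Timp2 to 0.64 and 0.63, which is -0.30 and -0.31 relative to that median. On that scaling 0 of the 10 members passed in edgeR, with 6 at an unadjusted p below 0.05, and relative to the median Timp3 was at 0.90, Adamts1 at 0.90, Adamts7 at 1.17 and Adamts2 at -1.09. The stricter glmTreat test of edgeR, which asks whether a change exceeds 1.5-fold, also passed 0 members (5 at an unadjusted p below 0.05), while DESeq2 and limma-voom each called the same 4 members as the main test and Adamts8.

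**Figure D2:**
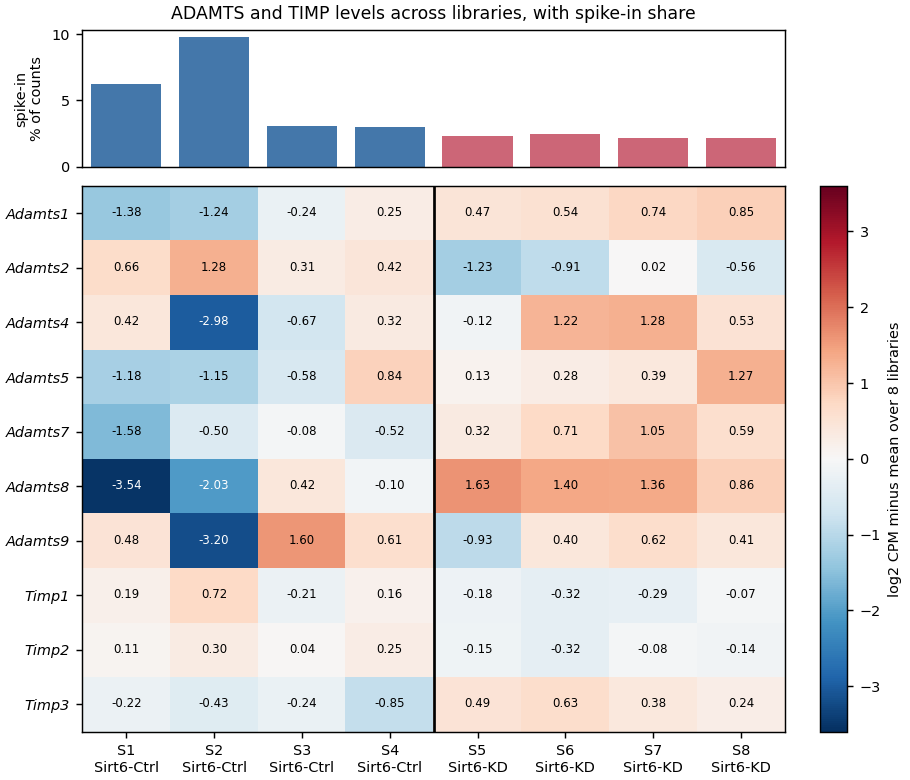
Log2 CPM of each member minus its mean over the 8 libraries (colour and printed value), with the share of counts taken by spike-ins in each library as bars above (y axis, percent). Adamts1, Adamts5 and Adamts8 are lowest in S1 and S2, where the spike-in share is 6.27% and 9.80%, and Timp1 and Timp2 vary least.

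**Figure D3:**
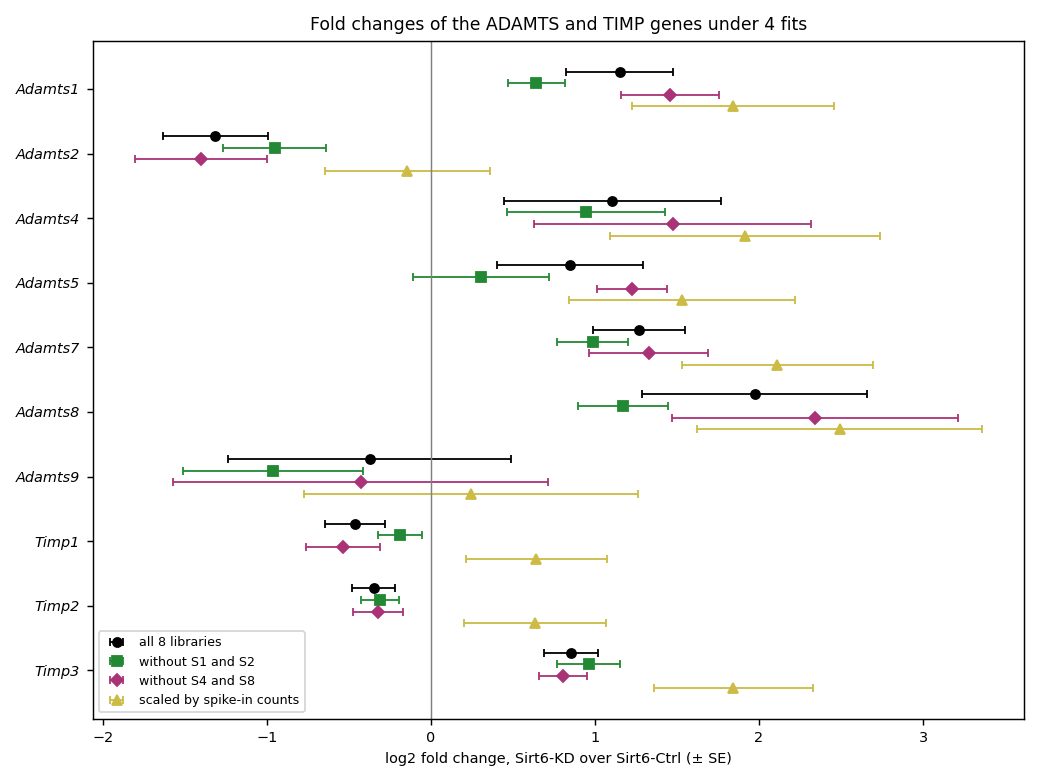
Log2 fold change of each member, Sirt6-KD over Sirt6-Ctrl, with its SE, from 4 fits: all libraries, without S1 and S2, without S4 and S8, and scaled by spike-in counts. Spike-in scaling moves all members upward, and Adamts9, Timp1 and Timp2 change sign on it, while Adamts5 moves from 0.31 without S1 and S2 to 1.23 without S4 and S8.

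Levels of different members were set against each other within a library, where the ratio does not depend on how libraries are scaled. For 6 pairs, log2 ratios of counts were tested between the groups by exact permutation (two-sided), which cannot give a p under 0.0286 with 4 libraries a group. Only the change of a ratio is read, since a ratio of counts between genes also reflects transcript length. Timp1/Timp3 was at 1.57, 2.31, 1.19 and 2.17 in S1 to S4 and at 0.49, 0.21, 0.49 and 0.85 in S5 to S8. All 4 Sirt6-KD ratios were below all Sirt6-Ctrl ratios, a difference of -1.30 ± 0.29 (SE; exact permutation p = 0.0286, adjusted over the 6 pairs 0.0857). Timp2/Timp3 was at 4.11, 4.51, 4.06 and 4.89 in S1 to S4 and at 3.14, 2.83, 3.32 and 3.41 in S5 to S8. Its difference was -1.22 ± 0.23, with all 4 Sirt6-KD libraries lower (exact permutation p = 0.0286, adjusted 0.0857). Timp2 was already lower and Timp3 higher in all 4 Sirt6-KD libraries, so the Timp2/Timp3 ratio had to separate and is no further support. Neither difference passed 0.05 after adjustment. Both were at the smallest possible p, and with the other pairs above it the adjusted value could not have been below 0.05.

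The 3 proteases set against Timp3, Adamts1, Adamts4 and Adamts5, did not separate from it in this way. Adamts2, which was lower in every Sirt6-KD library, was not among the pairs, and neither were Adamts7, Adamts8 and Adamts9. Adamts1/Timp3 differed by 0.43 ± 0.53 (exact permutation p = 0.486), Adamts4/Timp3 by 0.62 ± 0.90 (p = 0.657) and Adamts5/Timp3 by 0.17 ± 0.69 (p = 0.80), each with an adjusted p of 0.80. Timp1/Timp2 differed by -0.08 ± 0.15 (exact permutation p = 0.686, adjusted 0.80). In S4 the ratios Adamts1/Timp3, Adamts4/Timp3 and Adamts5/Timp3, at 3.79, -3.39 and 1.24, were above those of the other 7 libraries. Without S1 and S2, all 3 protease ratios changed sign.

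**Figure D4:**
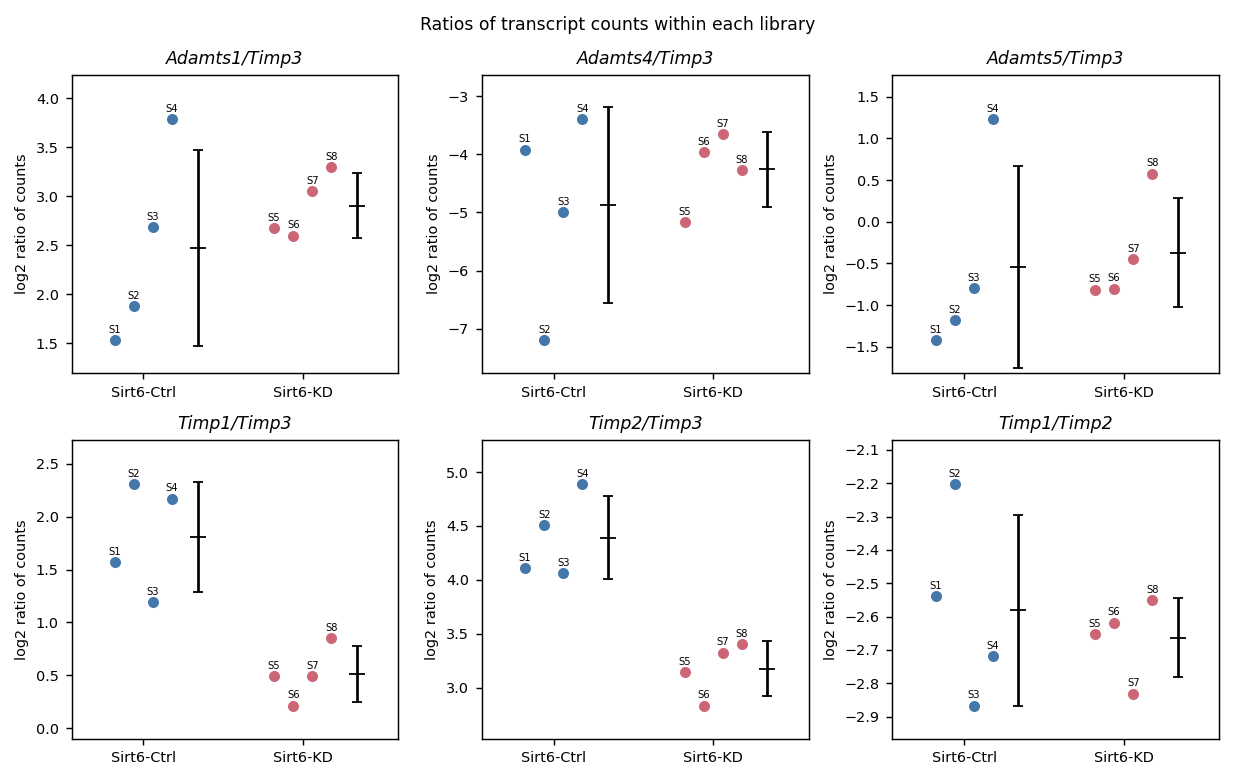
Log2 ratio of counts (y axis) of 6 gene pairs within each library, with points for libraries and bars for the group mean and SD. Timp1/Timp3 and Timp2/Timp3 are lower in all 4 Sirt6-KD libraries, and the other 4 pairs overlap between the groups.

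Most members varied less within Sirt6-KD than within Sirt6-Ctrl. The coefficient of variation was lower in Sirt6-KD for 9 of the 10 members, with Adamts2 the exception (33.0% and 39.0%), which is near the 85.6% of all genes for which this held. For Adamts1 it was 53.7% in Sirt6-Ctrl and 12.3% in Sirt6-KD, and for Adamts8 it was 91.7% and 20.9%. S1 and S2 were both below S3 and S4 for 4 members (Adamts1, Adamts5, Adamts8 and Adamts9), against 23.7% of all genes.

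The genes nearest to each called member in pattern were found from the root mean square difference of centred log2 CPM over the 8 libraries. Timp3 was closest to Pcsk5, a proprotein convertase of the family that removes propeptides (0.0492), and next to Ctc1, a component of the telomere-capping CST complex (0.0992). Adamts1 was closest to Itga1, the integrin alpha 1 chain that binds collagen (0.170), and Adgra2, an adhesion receptor (0.173). Adamts7 was nearest to AABR07001382.1 (0.166) and F8, coagulation factor VIII (0.187), and Adamts2 to Rnf39 (0.186) and Slc24a5 (0.224). These distances describe likeness over 8 libraries that the group difference also shapes.

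Beyond the members, 12 other ADAMTS genes were listed, of which 6 had a named row and all 6 were tested. Adamts10, which encodes a fibrillin-binding protease, rose, at 44.9, 34.7, 58.7 and 36.0 CPM in S1 to S4 and 73.5, 76.2, 79.6 and 64.8 CPM in S5 to S8 (log2 fold change 0.76 ± 0.18, edgeR adjusted p = 0.0172). Adamts6 also had separate groups, at 1.41, 0.340, 12.1 and 8.27 CPM against 19.6, 20.3, 20.02 and 18.4 CPM, but with 1.82 ± 0.78 it did not pass (adjusted p = 0.118). As with Adamts1 and Adamts8, its lowest libraries were S1 and S2. Adamts12, Adamts14, Adamts15 and Adamts17 had log2 fold changes between -0.09 and 0.45 and did not pass.

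None of the 5 ADAMTS-like genes tested passed, and their log2 fold changes ran from -1.04 to 0.89. The ADAMTS-like proteins lack the protease domain, and the highest value belonged to Adamtsl4 (0.89 ± 0.32, edgeR adjusted p = 0.0690). Of the other metalloproteinase inhibitors, Reck, a membrane-anchored inhibitor, was tested and gave 0.18 ± 0.22 (adjusted p = 0.604), and Spock3 was below the filter.

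Among 8 substrates tested, 1 rose and 2 fell, beside 8.02% higher and 10.7% lower over all genes. Vcan, which encodes versican, was at 26.3, 84.7, 132 and 78.7 CPM in S1 to S4 and at 204.5, 253, 334 and 204.2 CPM in S5 to S8 (log2 fold change 1.63 ± 0.39, edgeR adjusted p = 0.0169). Comp, the cartilage oligomeric matrix protein, was at 16.1, 8.26, 8.33 and 8.82 CPM against 0.868, 2.09, 0.860 and 1.33 CPM and fell by 3.01 on the log2 scale (SE 0.43, adjusted p = 0.00298). Col3a1, a fibrillar collagen, fell from 1069 ± 308 to 412 ± 153 CPM (log2 fold change -1.38 ± 0.27, adjusted p = 0.00812). Versican and Adamts1, which cuts it, were thus both higher in Sirt6-KD, while Adamts7 was higher and its substrate Comp lower. Acan, which encodes aggrecan, was at 4.54, 15.5, 8.83 and 55.7 CPM against 11.1, 15.5, 9.80 and 18.7 CPM, and S4 alone set the upper end (log2 fold change -0.62 ± 0.63, adjusted p = 0.520). Col1a1 did not pass (-0.63 ± 0.30, adjusted p = 0.150), and the other 3 substrates had log2 fold changes from -1.33 to 0.64.

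Of 9 genes that activate, modify or clear ADAMTS and TIMP proteins, 2 rose and 1 fell, beside the same 8.02% and 10.7% over all genes. Lrp1, the endocytic receptor that clears ADAMTS4, ADAMTS5 and TIMP3, was at 1414, 1226, 1929 and 1328 CPM in S1 to S4 and at 3122, 3245, 3624 and 3174 CPM in S5 to S8 (log2 fold change 1.16 ± 0.17, edgeR adjusted p = 0.00327). Pcsk5 rose from 22.1 ± 4.06 to 41.4 ± 3.78 CPM (0.91 ± 0.17, adjusted p = 0.00795). Pofut2, which adds fucose to the thrombospondin repeats, fell from 138 ± 33.2 to 75.7 ± 12.05 CPM (-0.86 ± 0.19, adjusted p = 0.0121). Furin, a convertase that removes ADAMTS propeptides, did not pass (0.15 ± 0.14, adjusted p = 0.482). Sdc1, a heparan sulfate proteoglycan, had an adjusted p of 0.0317 by edgeR but a log2 fold change of 0.49 ± 0.14, below the fold threshold.

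Among 7 ADAM and MMP genes whose products TIMPs inhibit, Adam12 rose, at 18.4, 11.4, 79.7 and 107.3 CPM in S1 to S4 and 199.6, 183, 166 and 224 CPM in S5 to S8 (1.83 ± 0.59, edgeR adjusted p = 0.0472). Its lowest libraries were again S1 and S2. The other 6, among them Mmp2, Mmp14, Adam10 and Adam17, had log2 fold changes from -0.55 to 0.29. Across these lists outside the members, 5 genes were called higher and 3 lower of 36 tested (22.2%), near the 18.7% called over all genes.

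**Figure D5:**
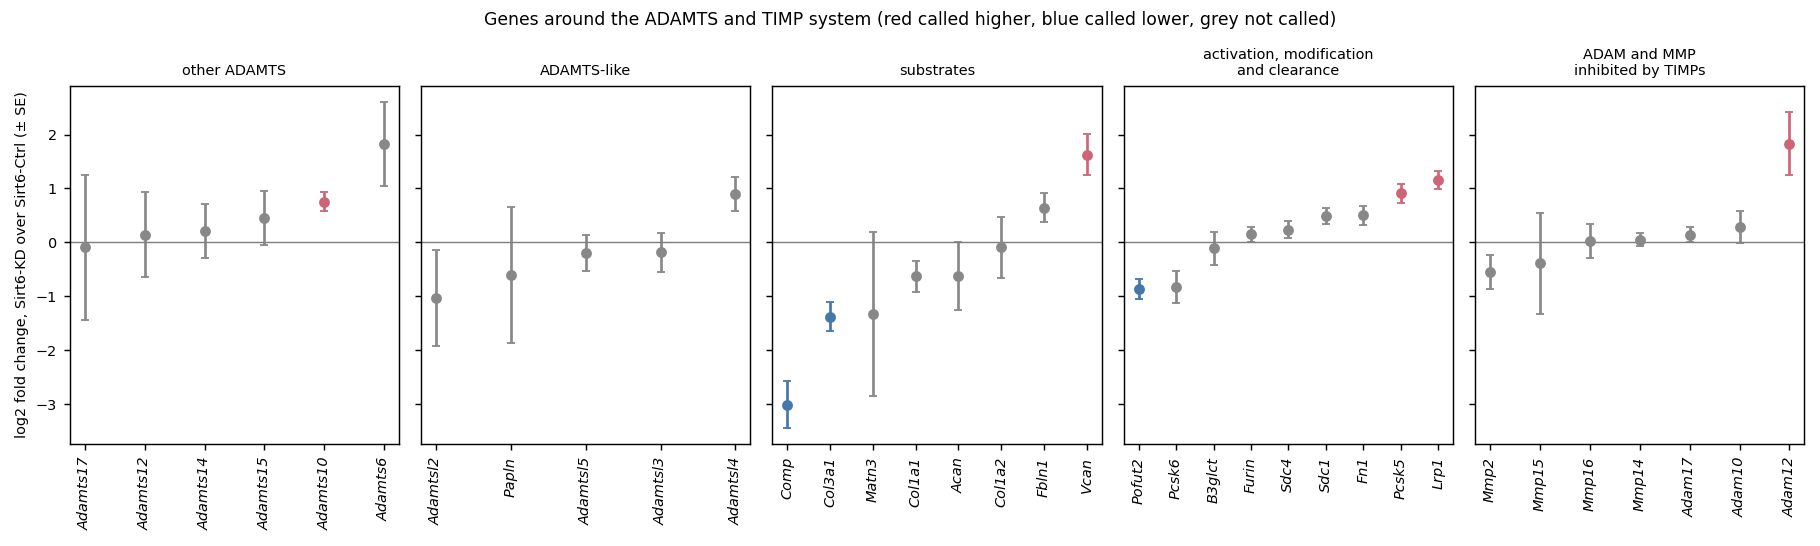
Log2 fold change, Sirt6-KD over Sirt6-Ctrl, with its SE (y axis) for tested genes of 5 lists around the ADAMTS and TIMP system (x axis). Vcan, Lrp1, Pcsk5, Adamts10 and Adam12 were called higher, and Comp, Col3a1 and Pofut2 lower, under TMM normalization; none of them passed with spike-in scaling.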

How the data were processed

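RNA-seq of primary rat NP cells was analysed in 4 Sirt6-Ctrl and 4 Sirt6-KD libraries, grouped by their genotype labels. The deposited counts are unnormalized reads for 32975 rows, which are Ensembl genes and ERCC spike-ins. Per the labels the processing used Trimmomatic 0.36, STAR 2.5.2b, Subread 1.5.2 with featureCounts, DESeq2 and the build Rnor_6.0. The authors also deposited a table of 13612 rows with their own fold changes and p-values, which were not used, and with a normalized signal per library, which is the raw counts divided by 1 size factor per library. Gene names were taken from that table. Rows outside it held at most 80 counts over the 8 libraries, so a symbol without a row is either that low or named otherwise.

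All values were computed from the raw counts. Rows were filtered with filterByExpr, leaving 13250 genes and 63 spike-ins, normalized by TMM and tested with edgeR 4.0.16 in R 4.3.3 (glmQLFit and glmQLFTest, two-sided, Benjamini-Hochberg over all rows), and a gene was called at adjusted p below 0.05 and fold above 1.5. Levels are CPM with the SD over 4 libraries. The SE of a log2 fold change was taken from the size of the change and its F statistic. Ratios within libraries used counts plus 1. At the depths given, 3 counts correspond to 0.0727 to 0.0928 CPM, which covers counting error only, since reads that carry no molecular identifier may be copies of 1 molecule. The labels do not say which cultures share a rat, so p-values measure the spread between these samples, which may in part be technical. Promoters came from RefSeq (GRCr8).

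The members, gene lists and tests were chosen with earlier results of these data known. All 10 members are named, with the called genes of the other lists and the 2 genes nearest in pattern to each called member. A few further genes were named after their values were seen, among them Adamts6, Adamts12, Adamtsl4, Acan, Col1a1, Furin, Reck and Sdc1. Alternatives were another filter, DESeq2 1.42.0, limma-voom (limma 3.58.1), other scalings, the glmTreat test, and libraries left out. Leaving out S4 and S8 was added after the data were seen. Protein sequences were not used here.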

Additional observations from a re-analysis of the deposited data

Results flagged for a closer look

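Adamts5 was the member in which 1 library stood far from the rest of its group, in both groups. In Sirt6-Ctrl the gap between S4 (95.6 CPM) and the next library was 0.830 of the whole range, and in Sirt6-KD the gap between S8 (129.1 CPM) and the next was 0.837, both past the 95% critical value of Dixon for 4 samples. These were 2 of 34 groups examined, and chance alone gives such a gap in about 1 in 20 groups. Among all 13250 genes, 21 (0.158%) had S4 and S8 both highest of their groups and both past that value. The cause was not tested.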

How the results depend on the processing

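With all libraries, 1063 genes were higher and 1416 lower. Scaling by spike-in counts left 20 higher and 4 lower, with 0 of the 10 members and 0 genes of the other lists called in either direction, and a Sirt6 log2 fold change of -0.36 (adjusted p = 0.567). On that scaling Adamts9, Timp1 and Timp2 changed sign, to 0.24, 0.64 and 0.63, beside a median of 0.94 over all genes. The glmTreat test of a change beyond 1.5-fold called 92 and 185 genes, 0 members in either direction, and 1 higher and 1 lower gene of the other lists. Adamts9 also changed sign with limma-voom (0.29) and without S3 (0.23), and it ran from -0.76 to 0.23 over the fits without 1 library. Without S1 and S2, 810 genes were higher and 709 lower, so the excess of lower genes seen with all libraries was reversed. In that setting 0 members were lower, and the log2 ratios of Adamts1/Timp3 (-0.33), Adamts4/Timp3 (-0.067), Adamts5/Timp3 (-0.59) and Timp1/Timp2 (0.13) changed sign. Without S4 and S8, 545 genes were higher and 908 lower, 0 members were lower, and the other lists had 2 higher and 5 lower. Leaving out 1 library at a time gave 445 to 1699 genes higher and 700 to 1913 lower, 2 to 4 members higher and 0 to 2 lower, and 2 to 7 list genes higher and 3 to 4 lower. In those fits the ratio differences ran from 0.12 to 0.87 for Adamts1/Timp3, -0.16 to 1.11 for Adamts4/Timp3, -0.15 to 0.76 for Adamts5/Timp3, -1.50 to -1.13 for Timp1/Timp3, -1.33 to -1.05 for Timp2/Timp3 and -0.18 to 0.045 for Timp1/Timp2. Adamts4/Timp3 turned to -0.16 without S2, Timp1/Timp2 to 0.045 without S2, and Adamts5/Timp3 to -0.12 without S1, -0.043 without S2 and -0.15 without S8. The causes were not tested. DESeq2 called 1593 genes higher and 1724 lower, and limma-voom 1591 and 1309, so that with limma-voom more genes were higher than lower. No paired analysis was made, because the labels and count columns carry no rat or replicate number shared by the groups. If the groups do share rats, the unpaired tests left that pairing out.

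Adamts4, Adamts8 and Adamts9 held 11, 15 and 3 reads in their lowest Sirt6-Ctrl library, S2, S1 and S2, although S1 and S2 had higher total counts (36180666 and 38506289) than S3 (31994838).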
